A study of Mus musculus with 8 samples.

Results

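The RNA that came down with the RNA-binding protein CPEB4 was compared with the RNA of the lysate it was taken from, in mouse striatum. In RNA immunoprecipitation (RIP) an antibody pulls a protein out of a crosslinked lysate together with the RNA attached to it. The comparison uses 4 of the study's 8 arrays, which are the CPEB4 RIP and the input of a WT pool and of an HD pool, matched by pool. Per the labels, the striata came from male mice of 7 to 8 months, with 4 mice named, and were pooled by genotype before crosslinking. The labels do not spell out HD or name its allele, and each fraction of each pool has 1 array. Input is an aliquot kept after the lysate had been cleared on bare beads. The other 4 arrays hold the CPEB1 RIP and the rabbit IgG RIP of the same pools, and IgG is the control for RNA that sticks to antibody and beads. All genes were followed in both directions: 11345 of 17097 genes averaged more than 4.23 on the log2 scale over the 8 arrays, which is the middle of all probe set means, and were tested.

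CPEB proteins bind U-rich cytoplasmic polyadenylation elements in the 3′ untranslated region of mRNAs. Through the factors they recruit, they lengthen or shorten the poly(A) tail and so raise or lower translation. CPEB4 belongs to the CPEB2 to CPEB4 subfamily, is found in brain neurons, and has been studied there as a regulator of mRNAs of autism risk genes. Array values are relative to the rest of each array, so a gene above input had a larger share of the precipitate than of the lysate, and the fraction of its mRNA that was bound was not measured.

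The CPEB4 arrays spread more widely than the inputs. Over the tested genes their log2 SD was 1.79 for WT and 1.68 for HD, against 1.33 and 1.51 for input, and they held 1810 and 1553 genes above a value of 8, against 770 and 1160. The array medians were 4.03 to 4.28. The CPEB4 arrays correlated with each other at r = 0.899 and the inputs at 0.792, across genes, which do not count as replicates. The WT input correlated with the other arrays at 0.625 to 0.792. Of 37 medium spiny neuron markers on the array, 35 passed the filter, and Ppp1r1b (DARPP-32) stood at 11.07 and 10.30 in the WT and HD inputs. The dopamine receptor genes Drd1 (4.53 and 4.47) and Drd2 (4.56 and 5.05) lay close to the filter level there.

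Enrichment was far more frequent than depletion among the large differences. By limma, with Benjamini-Hochberg adjustment and pools standing in for replicates, 152 genes were above input (1.34% of the genes tested) and 2 were below (0.0176%). The median log2 difference of the 152 was 3.05, with a range of 1.77 to 5.84, and it was 3.07 in the WT pool and 3.0 in the HD pool. By size alone, 1350 genes (11.9%) were at least 2-fold above input in both pools and 203 (1.79%) at least 2-fold below. At 4-fold the counts were 446 (3.93%) and 5 (0.0441%), and 138 of the 152 (90.8%) passed that level. In the other direction, small differences were the more frequent: 4933 genes (43.5%) lay below input in both pools and 3409 (30.0%) above, and the median of all genes was -0.15. At an unadjusted p under 0.05, limma put 1503 genes above (13.2%) and 1464 below (12.9%), where chance gives 567 in all. After cyclic loess the split was 1687 and 866, after median centring 1769 and 914, and after quantile normalization 1123 and 1576. The 2 pools, which share no array in this comparison, had the same sign in 8343 genes (73.5%). Both CPEB4 arrays lay above both inputs for 2921 genes (25.7%) and below both for 4432 (39.1%). Taken alone, the WT pool had 2936 genes at 2-fold above (25.9%) and 1810 below (16.0%), and the HD pool 1934 (17.0%) and 831 (7.32%).

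**Figure D1:**
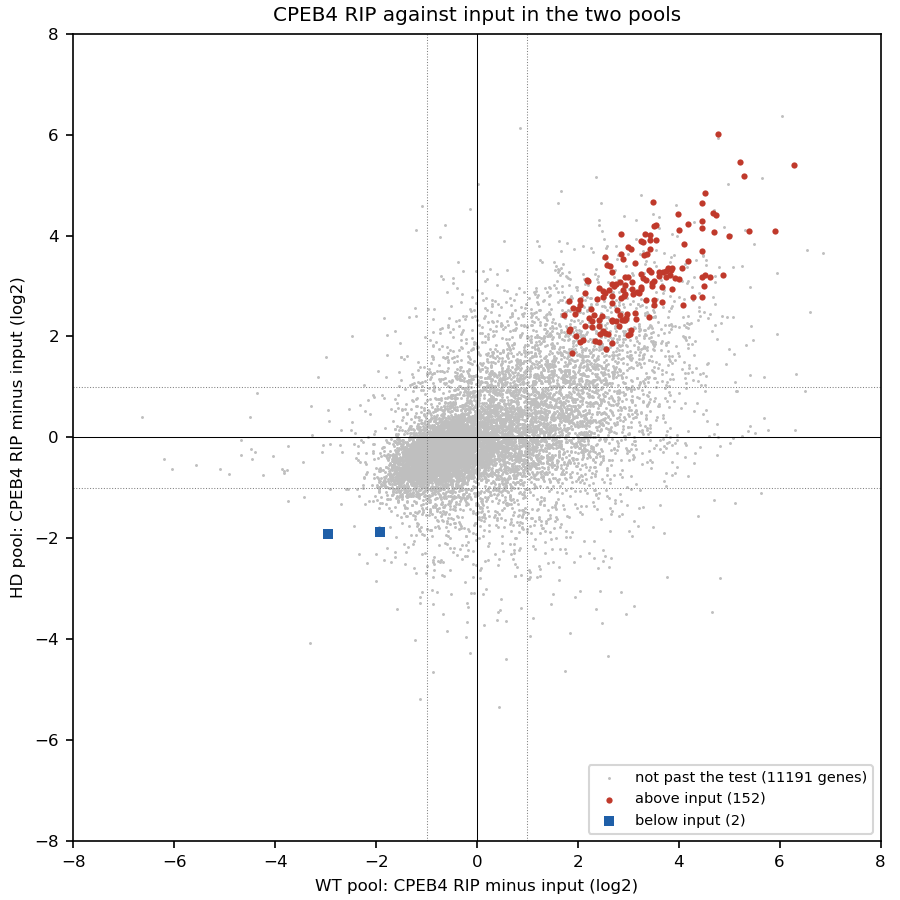
Difference of CPEB4 RIP from input for each of the 11345 genes tested, with the WT pool on the x axis and the HD pool on the y axis, both log2, and dotted lines at 2-fold. The 152 genes above input by limma (red circles) lie between 1.72 and 6.29 in WT and between 1.67 and 6.01 in HD, and the 2 genes below input (blue squares) stand at -2.95 and -1.92 in WT and at -1.92 and -1.88 in HD.

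The calls sit close to the threshold. The smallest adjusted p was 0.0229, and the median over the 152 was 0.0411. Leaving out any array, WT input included, took the count of higher and of lower genes to 0, and the smallest adjusted p then ran from 0.0521 without a CPEB1 array to 0.239 without the WT CPEB4 array. A fit on the 4 CPEB4 and input arrays alone also called 0 (smallest adjusted p 0.0504; 1749 genes above and 512 below at an unadjusted p under 0.05), and quantile normalization left 2, Cenpb and Fam76b, and 0 lower. At the threshold, Klhdc7a (2.71) and Il17d (2.50) fell just inside, and S1pr1 (3.36) and Cblb (2.33) just outside. With an array of input or CPEB4 left out, the median log2 difference of the 152 was between 3.01 and 3.09. It was 2.54 after quantile normalization, and 2.09 (lowest 0.24) over the 136 of them that were tested when a gene's probe sets were averaged.

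The largest rise was that of Cenpb, which encodes the centromere protein CENP-B. Its input values were 4.09 in WT and 5.23 in HD, its CPEB4 values 10.38 and 10.63, and its IgG values 8.60 and 9.42. The CPEB4 arrays stood far above the inputs, but IgG was high as well. By limma the rise over input was 5.84 ± 0.33 (log2 ± SE, n = 2 pools, 57.4-fold, adjusted p = 0.0229), and IgG itself lay 4.35 over input. The difference between CPEB4 and IgG, which is the test of the difference between their enrichments over the shared inputs, was 1.49 (adjusted p = 0.0909).

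Fam76b, a gene of little-studied function, passed the filter on mean level only through its CPEB4 values. It read 2.86 and 3.05 in the inputs, 8.16 and 8.23 with CPEB4, and 3.07 and 3.31 with IgG. Only the CPEB4 arrays were high among these 6, with a rise over input of 5.24 ± 0.24 (37.8-fold, limma adjusted p = 0.0229) and over IgG of 5.0 (adjusted p = 0.0259). Both inputs lay under 4.23, so the size of the fold depends on the array background. Of the 152 genes, 31 (20.4%, against 2.03% of all tested) likewise had a mean under 4.23 over the 6 other arrays, so being tested and being high with CPEB4 were not independent for them. With no filter at all, 140 of the 152 passed the test, Fam76b among them (adjusted p = 0.0139). It also stood 5.37 above the CPEB1 RIP (adjusted p = 0.0212). Its 2 other probe sets showed no such excess, at 0.10 and -0.28, and -0.03 and 0.06, in WT and HD.

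Spred1, which restrains Ras signalling to MAP kinase, rose 4.57 ± 0.38 (23.8-fold, limma adjusted p = 0.0353). Inputs were 4.23 and 3.58, CPEB4 8.97 and 7.98, and IgG 3.84 and 3.79. The input and IgG values overlapped, and CPEB4 lay above all of them. All 4 other probe sets of the gene were also above input in both pools: by 5.68 and 4.70, 4.06 and 3.32, 3.03 and 2.83, and 3.59 and 0.98. No probe set of the gene stood apart in direction.

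Trim44, of the tripartite motif family of ubiquitin-related proteins, rose 5.39 ± 0.40 (42-fold, limma adjusted p = 0.0353). Its inputs were 4.55 and 3.33, its CPEB4 values 9.33 and 9.34, and its IgG values 6.20 and 6.35. CPEB4 stood above IgG (3.06, adjusted p = 0.0376), while the CPEB1 RIP was 5.61 over input (adjusted p = 0.0653). A second probe set was 2.59 above input in WT and 0.30 below in HD, so the HD pool differed between probe sets.

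Further rises were of similar size. Lrrc4, a postsynaptic adhesion protein, rose 5.01 ± 0.50 (limma adjusted p = 0.0382), from inputs of 3.71 and 4.13 to 9.63 and 8.22. Ivns1abp, a kelch protein that binds actin and an influenza protein, rose 4.49 ± 0.40, and Gpatch8 rose 4.57 ± 0.50. Zcchc3, a zinc finger nucleic acid sensor, rose 4.69 ± 0.60 (adjusted p = 0.0416). Like Fam76b, Ivns1abp, Gpatch8 and Zcchc3 passed the filter on mean level only through their CPEB4 values. IgG lay 1.42 over input for Lrrc4, -0.07 for Gpatch8 and -0.40 for Ivns1abp.

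Some rises started from inputs above the filter level. Both inputs were above 4.23 in 105 of the 152 genes (69.1%, against 90.7% of all genes tested), and both below it in 29 (19.1%, against 2.62%). Siva1, a proapoptotic protein, read 5.54 and 6.35 in the inputs, 10.01 and 10.49 with CPEB4, and 5.69 and 6.40 with IgG. Input and IgG overlapped and CPEB4 was above both by 4.31 ± 0.45 and 4.21 (limma adjusted p = 0.0382 and 0.0367). Its 3 other probe sets lay above input in both pools, between 0.59 and 1.69. Mettl6, a tRNA methyltransferase, rose 4.05 ± 0.26 (adjusted p = 0.0336), from 5.37 and 5.23 to 9.37 and 9.34, with IgG at 5.01 and 5.26. For Mettl6 the CPEB4 arrays also stood 4.09 above CPEB1 (adjusted p = 0.0426). Dlc1, with inputs of 4.60 and 4.44, only just above that level, rose 4.20 ± 0.49. Bccip, a BRCA2-interacting protein, rose 4.38 ± 0.52, and Pitpnm2, a phosphatidylinositol transfer protein, 4.37 ± 0.47.

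**Figure D2:**
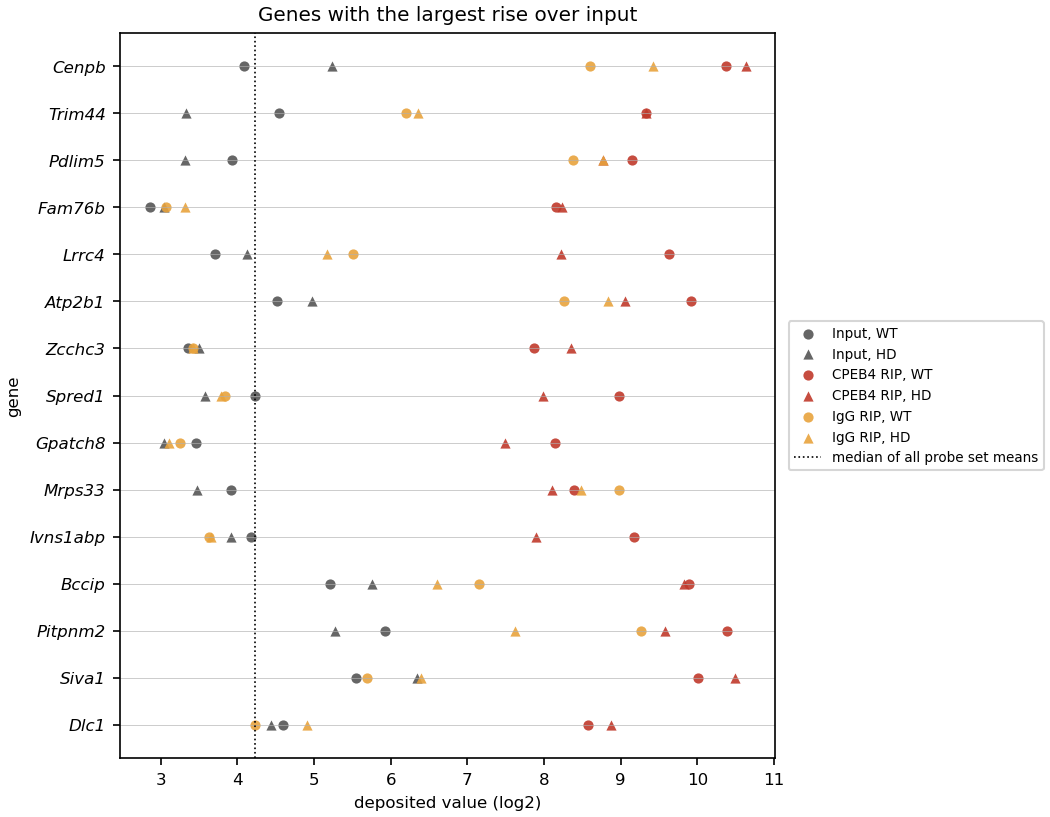
Deposited log2 values of the 15 genes with the largest rise over input, for input (grey), CPEB4 RIP (red) and IgG RIP (orange), with circles for the WT pool, triangles for the HD pool and a dotted line at 4.23. CPEB4 lies above input in both pools for all 15, while IgG lies near CPEB4 for Cenpb, Pdlim5, Atp2b1 and Mrps33 and near input for Fam76b, Zcchc3, Spred1, Gpatch8 and Ivns1abp.

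For most of the 152 genes the IgG control did not share the rise. IgG itself was 2-fold above input in both pools for 24 of them (15.8%, against 1.67% of all genes), and the median of IgG over input was 0.17. CPEB4 was above IgG by limma for 109 of the 152 (71.7%, against 2.33% of all genes) and 2-fold above it in both pools for 136 (89.5%, against 14.3%). These 2 comparisons share the CPEB4 arrays, so the counts are not independent. Of the 1350 genes at 2-fold over input, 879 (65.1%) were also 2-fold above IgG.

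Other genes were high with IgG too. Mrps33, a mitochondrial ribosomal protein, read 3.92 and 3.47 in the inputs, 8.39 and 8.11 with CPEB4, and 8.98 and 8.48 with IgG. Its rise over input was 4.55 ± 0.25 (limma adjusted p = 0.0229), and that of IgG was 5.04 (adjusted p = 0.0323). The noncoding RNA Meg3 rose 3.68 ± 0.41 (adjusted p = 0.0402), from 7.46 and 7.15 to 10.80 and 11.18, but IgG reached 11.43 and 12.10. The 9 other probe sets of Meg3 ran from -1.05 to 4.40 over input in WT and from 0.05 to 3.91 in HD. Rsrc2, Glo1 (glyoxalase 1) and Cgref1 rose 3.96, 3.73 and 3.46 over input and stood only 0.24, 0.23 and 0.20 over IgG, differences that did not pass the test. Pdlim5, a PDZ-LIM adaptor, rose 5.34 ± 0.47 over input and differed from IgG by 0.39 (adjusted p = 0.594). Atp2b1, the plasma membrane calcium pump PMCA1, rose 4.74 ± 0.44 and differed by 0.94 (adjusted p = 0.262).

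CPEB1, the founding member of the family, lay 2-fold above input in both pools for 50 of the 152 genes (32.9%, against 3.49% of all genes). CPEB4 stood above CPEB1 by limma for 15 of them (9.87%, against 0.141%), Fam76b, Mettl6, Ivns1abp and Msl2 among the named. The median of CPEB1 over input was 0.58 in the 152. For Pabpc1, Kmt2c, Trim44 and Cenpb the CPEB4 and CPEB1 values differed by 0.24, -0.06, -0.22 and -0.20. These comparisons also share the input arrays, and a difference that did not pass does not show equal enrichment.

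Among the genes past the test were some that act on mRNA itself. Pabpc1, the cytoplasmic poly(A)-binding protein, read 5.62 and 5.20 in the inputs, 9.29 and 8.17 with CPEB4, and 4.83 and 4.66 with IgG. Its rise was 3.32 ± 0.33 (10-fold, limma adjusted p = 0.0382), but a second probe set, with no value above 3.76, did not show it. Pum2, a Pumilio repressor of translation, rose 2.96 ± 0.29 (adjusted p = 0.0382), from 7.31 and 7.06 to 10.41 and 9.89, with IgG at 7.32 and 6.32. Its 2 other probe sets were above input by 4.77 and 2.63, and by 3.02 and 3.69. Among 42 tested genes for poly(A), 3′ end and miRNA silencing factors, these 2 rose (4.76%, against 1.34% of all genes) and none fell. In the list, 11 were at 2-fold above input in both pools (26.2%, against 11.9%), among them Pabpn1 (3.35) and the helicase Ddx6 (3.13), and 0 at 2-fold below, with a median of 0.53 against -0.15 for all genes. Of the 42, 3 passed the filter on mean level only through their CPEB4 values, as did 2.03% of all genes tested. For these, being tested and being high with CPEB4 were not independent.

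Splicing regulators formed a second such group. Of 38 tested hnRNP, SR and related splicing genes, Srsf4, Hnrnpk and Celf1 rose (7.89%, against 1.34% of all genes), 0 fell, and 15 were at 2-fold above input in both pools (39.5%, against 11.9%). The list's median was 1.24 (1.66 in WT, 0.88 in HD), and its IgG over input median was -0.08. Of the 38, 2 passed the filter on mean level only through their CPEB4 values, so their being tested and being high were not independent. Hnrnpk, a poly(C)-binding hnRNP, rose 3.53 ± 0.42 (limma adjusted p = 0.0411), from 3.92 and 5.23 to 8.19 and 8.01, with IgG at 4.03 and 4.18. Celf1, which binds GU-rich elements, rose 3.09 ± 0.36, with IgG 1.51 over input. Of its 4 other probe sets, 3 were above input in both pools, and the fourth, with inputs of 7.69 and 6.92, was not (-0.05 and -0.03). The SR protein gene Srsf4 rose 3.57 ± 0.49 (adjusted p = 0.0481).

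Autism risk genes had the highest list median, and chromatin regulators also lay above input as a list. Of 43 tested chromatin regulators, Kmt2c, Hdac1, Kat6a and Msl2 rose (9.3%, against 1.34% of all genes) and 0 fell. Of the 43, 2 passed the filter on mean level only through their CPEB4 values, Hdac1 among them. For these, being high with CPEB4 and being tested were not independent. In both pools 17 were at 2-fold above (39.5%, against 11.9%) and 1 at 2-fold below (2.33%, against 1.79%), and the median was 1.03. Msl2, a subunit of an H4K16 acetylation complex, read 6.13 and 5.22 in the inputs, 9.50 and 8.85 with CPEB4, and 5.97 and 4.98 with IgG (3.50 ± 0.25, limma adjusted p = 0.0353). A second Msl2 probe set was higher still, at 6.12 and 5.17 above input, and another, at background on all arrays, was not. Of 34 tested autism risk genes, Kmt2c, an H3K4 methyltransferase, was the only one to rise (2.74 ± 0.28, adjusted p = 0.0382), but 17 were at 2-fold above in both pools (50.0%, against 11.9% of all genes), 0 were below, and the median was 1.75 (1.90 in WT, 1.43 in HD; IgG over input 0.10). The largest that did not pass were Tbl1xr1 (4.05), Dyrk1a (3.72), Cul3 (3.62) and Tcf4 (3.39), with adjusted p between 0.061 and 0.162. The other probe sets of Cul3 were far lower, from -0.51 to 1.296 over input in WT and from -0.12 to 0.52 in HD. Those of Tbl1xr1 lay between -0.17 and 0.16 in either pool, except 1 that was 2-fold above input in both. Those of Dyrk1a and Tcf4 were all above input in both pools. Kmt2c stands in both lists, and its 3 other probe sets differed, at 2.17 and -1.06, 0.37 and 1.54, and -0.06 and 0.27 over input in WT and HD.

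A few synaptic genes rose, on both sides of the synapse. Synj1, the synaptojanin phosphatase of vesicle recycling, read 4.30 and 4.32 in the inputs, 7.81 and 8.49 with CPEB4, and 5.26 and 4.80 with IgG. It rose 3.84 ± 0.52 (14.3-fold, limma adjusted p = 0.0452), and 2 of its 3 other probe sets were above input by 4.71 and 4.59, and by 2.90 and 2.52. Erc2 (3.41 ± 0.32), an active zone scaffold, and the vesicle protein Syt4 (2.65 ± 0.34) rose as well, 3 of 32 presynaptic genes tested (9.38%, against 1.34% of all genes). The other probe set of Erc2 was at -0.64 and -0.17 over input, and that of Syt4 at 0.03 and 0.51, both with all values under 4.23. Of the 32 presynaptic genes, 2 passed the filter on mean level only through their CPEB4 values, Erc2 among them. For these, being high with CPEB4 and being tested were not independent. Among 32 postsynaptic genes, 1 rose (3.12%, against 1.34% of all genes) and 11 were at 2-fold above in both pools (34.4%, against 11.9%). The 1 past the test was the GABA-A receptor subunit Gabra2 (3.55 ± 0.45, adjusted p = 0.0417), from 4.61 and 4.49 to 8.53 and 7.66. Its other probe set, with all values under 4.23, was 0.30 and 0.42 above input. The median was 1.19 for the postsynaptic and 0.84 for the presynaptic list, with 1.81 and 1.48 in WT against 0.50 and 0.30 in HD. The AMPA receptor gene Gria2 stood 4.61 over input without passing the test (adjusted p = 0.0567). Its 2 other probe sets did not share this rise, at 0.08 and -0.09, and -0.42 and 0.94, over input in WT and HD.

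Of 35 genes listed as medium spiny neuron markers 11 were at 2-fold above input in both pools (31.4%, against 11.9% of all genes) and 1 below (2.86%, against 1.79%). None passed the test, where the share of all genes that rose, 1.34%, would give less than 1. The 1 below was Lrpap1, an LDL receptor chaperone that the list also held. Its other probe sets did not share the fall, at 1.47 and 1.37, and 0.28 and -0.66, over input in WT and HD. Bcl11b (CTIP2) was 3.42 over input in WT and 2.22 in HD, and Gnal, the striatal G protein alpha subunit, 5.41 and 2.98. The 3 other Gnal probe sets were far lower, at 0.99 and 0.53, 0.52 and 0.03, and -0.76 and -0.54 in WT and HD. Penk, which encodes enkephalin, read 9.64 and 8.30 in the inputs, 10.99 and 9.88 with CPEB4, and 11.03 and 9.96 with IgG. CPEB4 was no higher than IgG there. The list's median was 0.81 (1.25 in WT, 0.39 in HD).

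Reported CPEB targets were at 2-fold above input in both pools about as often as all genes (2 of 18 tested, 11.1%, against 11.9%). Past the test was 1 of the 18 (5.56%, against 1.34%): Map2, a dendritic microtubule-associated protein. Its inputs were 6.28 and 4.69, its CPEB4 values 9.13 and 8.72, and its IgG values 7.05 and 5.95 (3.44 ± 0.35, limma adjusted p = 0.0382). The CPEB4 arrays lay above both the inputs and IgG, and the difference from IgG was 2.43 (adjusted p = 0.0419). Gria2, whose 2 other probe sets did not share its rise, was the other member at 2-fold in both pools. Camk2a, a classic polyadenylation-element mRNA of dendrites, stood at 0.84 and -0.05 over input, with inputs of 11.52 and 12.04, near the upper end of the arrays. Bdnf was at -0.75 and -0.07. The median was 0.22, and -0.11 after quantile normalization.

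Within the CPEB family, the mRNA of Cpeb3 had values of 7.14 and 7.58 in the inputs, 9.73 and 9.51 with CPEB4, and 9.30 and 7.29 with IgG (2.26 ± 0.62, limma adjusted p = 0.122). A second probe set of Cpeb3 was 2.79 and 2.90 above input, and another 0.87 and 0.31. No Cpeb1, Cpeb2 or Cpeb4 probe set passed the filter on mean level, so they were not tested. Of 3 Cpeb4 probe sets, the first went from 3.52 and 3.49 to 7.37 and 4.46, another was 3.53 and 0.95 above input, and the last 0.68 and 0.10. Among 3 Cpeb2 probe sets the highest was 4.56 and 1.83 above. All 3 Cpeb4 probe sets and that of Cpeb2 stood higher over input in WT, and the other Cpeb2 probe sets, at -0.08 and 0.04 and at 0.33 and 0.58, did not. The Cpeb1 probe set went the other way, at -0.02 in WT and 1.81 in HD. Htt, which encodes huntingtin, was 0.76 over input in WT and 1.37 in HD (adjusted p = 0.186).

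Calls among genes of protein synthesis and breakdown were single ones. Eif1ax, a start-codon scanning factor, rose 3.87 ± 0.43 (limma adjusted p = 0.0402), from 3.32 and 3.91 to 7.84 and 7.14, the only 1 of 36 translation factors (2.78%, against 1.34% of all genes). It passed the filter on mean level only through its CPEB4 values, so being tested and being high with CPEB4 were not independent for it. Psmc1 (3.58 ± 0.42) and Psma7 (2.70 ± 0.34) rose among 33 proteasome genes (6.06%), and Trim44 among 44 ubiquitin ligation genes (2.27%). The medians of these lists were 0.91, 0.80 and 1.04. None of 65 cytosolic ribosomal protein genes passed, and their median of 0.91 was 1.41 in WT, 0.13 in HD, and -0.09 after cyclic loess normalization. The WT input moved with this: Rpl12 read 5.22 in the WT input against 10.63 in the HD input, and 10.91 and 11.01 with CPEB4, and Rpl30 4.68 against 8.77. The part of that array in the ribosomal values was not tested. Of 68 oxidative phosphorylation genes 0 passed, and the median of 0.25 was 0.59 in WT and -0.36 in HD, and below 0 after cyclic loess (-0.28) and quantile normalization (-0.31).

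Several further lists had no member past the test, apart from Meg3 and Dhrs1. Among 20 neurodegeneration genes, 6 were at 2-fold above input in both pools (30.0%, against 11.9% of all genes) and 1 below (5.0%, against 1.79%), with a median of 1.18. The autophagy gene Becn1 stood at 3.05, Tardbp, which encodes TDP-43, at 2.97, and the progranulin gene Grn at -1.42. Of 8 nuclear long noncoding RNAs, Meg3 rose (12.5%, against 1.34% of all genes). With Malat1 (1.97) and Rian (2.35), 3 were at 2-fold above in both pools (37.5%, against 11.9%). The list's IgG over input median (0.74) was above that of CPEB4 (0.15, and -0.08 after quantile normalization). Immediate early genes (15 tested) had 3 at 2-fold above in both pools (20.0%, against 11.9%), Fosb, Jun and Egr1, and a median of 0.14. Lysosomal genes (35 tested) had 4 at 2-fold above (11.4%, against 11.9%) and 4 below (11.4%, against 1.79%). Their median of -0.04 was 0.21 after cyclic loess and 0.14 after median centring. Endoplasmic reticulum folding and translocation genes (37 tested) had 5 above (13.5%, against 11.9%) and 2 below (5.41%, against 1.79%), and a median of 0.23. Of 17 short-chain dehydrogenase and peroxisome genes, Dhrs1 fell (5.88%, against 0.0176% of all genes). That list, too, was chosen with earlier results of these data known, so its share is not independent of the Dhrs1 call. In that list 2 were at 2-fold above (11.8%, against 11.9%) and 2 below (11.8%, against 1.79%), and the median was 0.43.

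**Figure D3:**
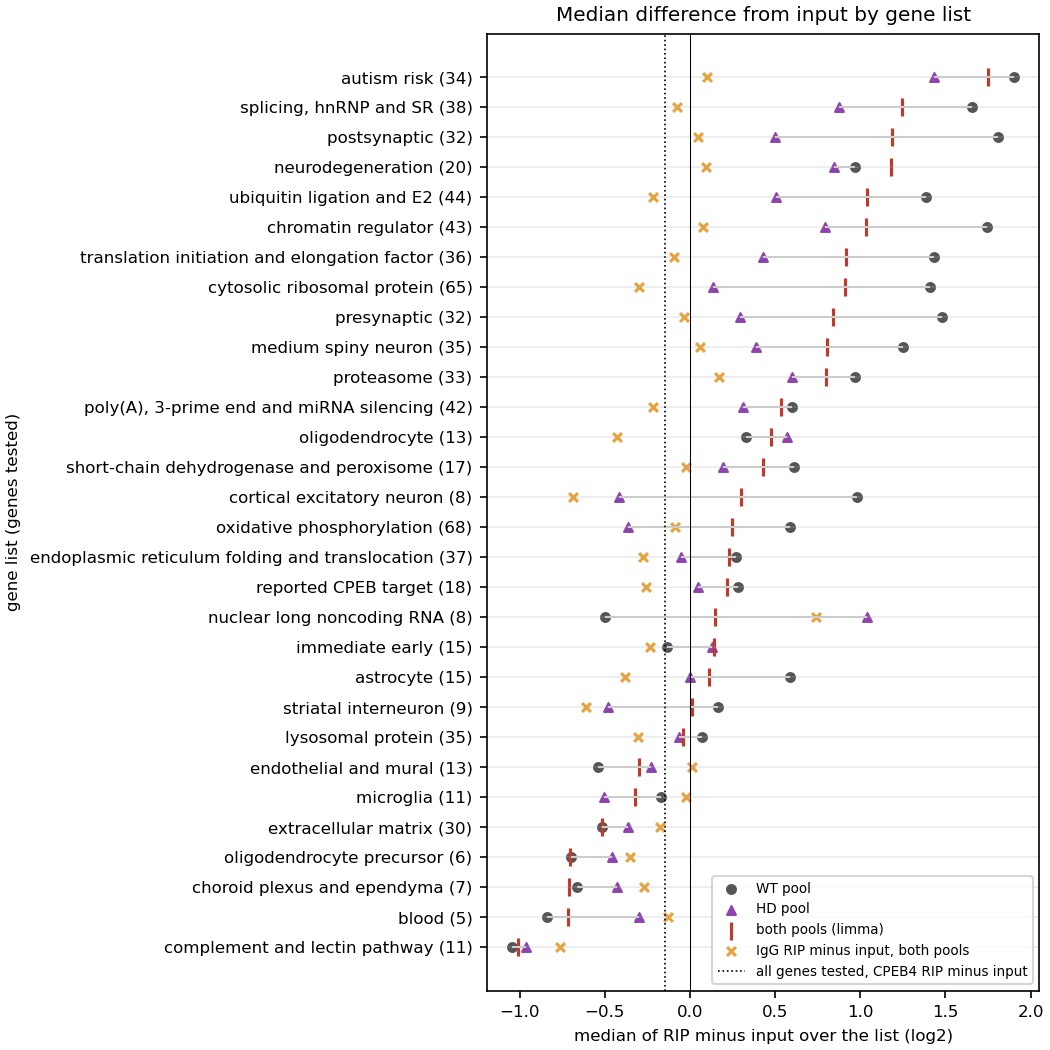
Median CPEB4 RIP minus input (log2) of 30 gene lists, with the number of genes tested in brackets, in the WT pool (grey circles), the HD pool (purple triangles) and both (red bars, limma), with IgG RIP minus input as orange crosses and all genes tested at -0.15 (dotted line). Autism risk genes lie highest (1.75) and the complement and lectin pathway lowest (-1.01), and the pools are farthest apart for nuclear long noncoding RNA.

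Depletion reached the test for only 2 genes. Dhrs1, a short-chain dehydrogenase, read 9.34 and 7.65 in the inputs, 6.38 and 5.73 with CPEB4, and 7.78 and 6.37 with IgG. Both CPEB4 values were below both inputs, and the IgG values overlapped with each of those groups. It fell by 2.44 (SE 0.33, limma adjusted p = 0.0469), and the difference from IgG was -1.02 (adjusted p = 0.17). Without the pool as a block, the adjusted p of Dhrs1 was 0.122. Masp1, a protease of the lectin branch of complement, read 8.07 and 8.15 in the inputs, 6.15 and 6.27 with CPEB4, and 6.66 and 6.73 with IgG. It fell by 1.90 (SE 0.235, adjusted p = 0.0411), IgG lay 1.41 below input, and the difference from IgG was -0.49 (adjusted p = 0.273). The mean of all 5 probe sets of Masp1 was 0.77 below input and did not pass the test.

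Larger differences in the same direction did not pass the test. Lrpap1, an LDL receptor chaperone, was 3.31 and 4.07 below input, and its other probe sets went against this, being 1.47 and 1.37 above, or 0.28 above and 0.66 below. Rmc1 (-3.16) and Irf3 (-2.63), the interferon regulatory factor, each had a high HD input, 9.12 and 9.16 against 4.88 and 6.19 in WT. Clu, the secreted chaperone clusterin, read 10.64 and 11.07 in the inputs, 8.63 and 8.23 with CPEB4, and 7.67 and 7.12 with IgG (-2.43 ± 0.41, limma adjusted p = 0.0616). Both precipitates lay below both inputs, and IgG lay below CPEB4. The other Clu probe sets stood at 1.84 and -0.44, and at -1.57 and -2.88, over input in WT and HD. Tcn2, the vitamin B12 carrier transcobalamin, was 3.43 and 1.18 below input, and its 2 other probe sets were 3.63 and 2.92, and 1.25 and 2.69, below. Srxn1, Idh3g, Tnfrsf22, Fuca1 and Dym stood between -2.49 and -2.16. Other probe sets of Srxn1 were at 0.20 and 2.71, -0.40 and -1.81, and 1.65 and 2.63 over input in WT and HD. That of Idh3g was at -0.0008 and -0.37. Those of Tnfrsf22 and Fuca1 were below input in both pools by less, and those of Dym differed in sign.

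**Figure D4:**
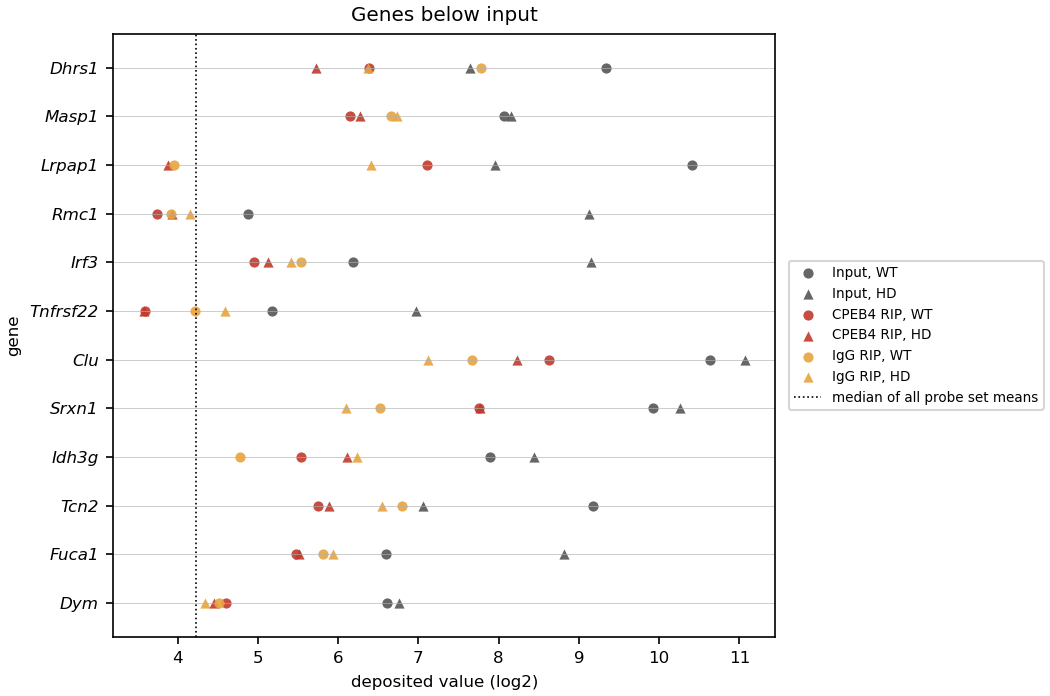
Deposited log2 values of the 12 named genes below input, for input (grey), CPEB4 RIP (red) and IgG RIP (orange), with circles for WT and triangles for HD. Dhrs1 and Masp1 passed the test, CPEB4 lies below input in both pools for all 12, and IgG lies below input in both pools for all 12 too.

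IgG also lay under input for many genes of the low side, a comparison that uses the same input arrays. Over the 203 genes 2-fold below input in both pools, the median was -1.38 for CPEB4 and -0.95 for IgG. IgG itself was 2-fold below input in 53 of them (26.1%, against 3.34% of all genes). Against IgG, which the choice of the 203 did not use, CPEB4 was lower in both pools for 144 (70.9%, against 42.0% of all genes) and higher in both for 30 (14.8%, against 33.8%). The differences were small: 2 of the 203 were 2-fold below IgG in both pools (0.985%, close to the 0.996% of all genes), and none was below IgG by limma. These comparisons share the CPEB4 arrays with the choice of the genes.

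Complement genes had the lowest list median. Of 11 tested genes of the complement and lectin pathway, Masp1 fell (9.09%, against 0.0176% of all genes) and 0 rose. This list was chosen with earlier results of these data known, so its share is not independent of the Masp1 call. In both pools 5 were 2-fold below input (45.5%, against 1.79%): Masp1, C1qa, C1qc, the C1 inhibitor gene Serping1 and Clu. The median was -1.01 (-1.04 in WT, -0.96 in HD), and -0.76 for IgG over input. C1qa was 1.56 and 1.04 below, and C1qc 1.04 and 1.93 below. Because C1q is made by microglia in brain, the microglia list was set beside it. Of 11 tested markers 0 passed, and 2 were 2-fold below in both pools (18.2%, against 1.79% of all genes), both of them C1q genes. The summed log2 level went from 63.16 and 63.34 in input to 62.60 and 56.98 with CPEB4. Csf1r was 1.04 and 0.56 below and Trem2 1.57 and 0.54, while Fcrls (2.65 and -0.25), Aif1 (2.37 and -0.15) and Cx3cr1 (1.08 and -0.32) were above input in WT and below in HD. The part of cell type in the complement values was not tested.

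For other cell types of the striatum and its surroundings the lists were short, so their counts of calls say little. Mef2c, a transcription factor listed with cortical excitatory neurons and also expressed in striatum, rose 2.90 ± 0.37 (limma adjusted p = 0.0417), from 4.36 and 4.43 to 7.77 and 6.81. It was the only 1 of 8 in that list. Interneuron, astrocyte, oligodendrocyte, oligodendrocyte precursor, endothelial and mural, choroid plexus and blood lists, 68 entries tested in all, had 0 past the test in either direction, where 1.34% of all genes rose. Their medians ran from -0.71 for choroid plexus, blood and precursor genes to 0.48 for oligodendrocytes, which was -0.24 after cyclic loess. In the choroid plexus list, the kept probe set of Ttr was above input. Another Ttr probe set read 8.69 and 10.76 in the inputs and 4.61 and 6.55 with CPEB4 (-4.08 and -4.21), with IgG at 3.46 and 3.82. The haemoglobin gene Hba-a1 was 1.84 and 2.43 below input, from 11.92 and 12.53, while Hba-a2 was 1.38 and 0.98 above, from 6.42 and 7.62. Of 30 tested extracellular matrix genes, 1 rose, the proteoglycan Ncan (2.38 ± 0.30, adjusted p = 0.0411), with IgG 1.64 over input, and the median was -0.51.

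The excess grew with the mean level of a gene. In the 4 quartiles of mean over the 8 arrays, each of 2836 or 2837 genes, the median log2 difference was -0.33, -0.30, -0.12 and 0.60. Genes above input by limma numbered 26, 26, 40 and 60, and genes 2-fold above in both pools 127, 220, 353 and 650. The mean holds the CPEB4 arrays themselves, so this is a description. Shares of the gene lists were set against all genes tested and not against genes of like mean level.

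Probe sets of a gene did not always follow each other. Of the 152 genes, 104 had another probe set, 189 in all, of which 96 were above input in both pools and 43 at 2-fold. Among the 128 with a CPEB4 value above 4.23, 87 were above input in both pools. At least 1 other probe set was above input in both pools for 66 of the 104 genes.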

How the data were processed

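RNA of 4 fractions (input, CPEB1 RIP, CPEB4 RIP, IgG RIP) of a WT and an HD pool was read on 8 Affymetrix arrays. Per the labels, RNA was amplified over 27 cycles and 8 µg of cDNA was hybridised. The authors deposited log2 values made with RMA, per the submitters' processing notes; its version was not given in the sources used here. They were used as deposited. Of 45101 probe sets, 28898 had 1 gene symbol in the platform annotation, 551 several and 15652 none, and 28689 were matched to RefSeq (GRCm38.p6). For each gene the probe set of highest mean among those naming that gene only was kept.

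Comparisons were made in limma 3.58.1 under R 4.3.3 (lmFit, eBayes, two-sided, Benjamini-Hochberg adjusted p under 0.05 over 11345 genes), with fraction and genotype pool as a block over all 8 arrays. This leaves 3 residual degrees of freedom and 2.29 from the prior. With pools in place of replicates, p-values measure how unevenly fractions differ between pools, which may be technical; the number of arrays limits precision. The labels pair fractions by pool, each coming from 1 lysate. HD minus WT deviations of CPEB4 and input correlated at -0.02 across genes, and the 6 pairs of fractions ran from -0.16 to 0.25.

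Named genes were the 15 largest rises, the 12 lowest, the 8 largest with both inputs above 4.23, the 5 nearest to and the 5 farthest from IgG, the 3 most different between pools each way, list members past the test, the 4 largest of each list, the CPEB family and Htt, and 2 on each side of the threshold; clone and predicted-gene names were passed over. Other list members named, and the probe sets singled out, were chosen after their values were seen. The comparison, genes and 27 lists were chosen with earlier results of these data known, and the lysosomal, endoplasmic reticulum and extracellular matrix lists after values were seen here. Alternatives were other filters, probe set rules, normalizations, references and fold thresholds, trended robust eBayes, no block, the 4 arrays alone, and each array left out in turn. A planned description of protein length was not made, and no 3′ untranslated regions were used here.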

Additional observations from a re-analysis of the deposited data

Results flagged for a closer look

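For some genes the WT pool lay above input and the HD pool below it, which put them here as opposite between the pools. Each value rests on 1 array per fraction and pool, and the differences were not tested. The HD minus WT difference in CPEB4 over input was -5.10 for Ndufa5 (4.75 in WT, -0.35 in HD), -4.28 for Atp5j (3.97 and -0.31) and -3.84 for the clock gene Per1 (3.84 and -0.0018). Ndufa5 and Atp5j belong to oxidative phosphorylation. The other Ndufa5 probe set was 1.45 above input in WT and 1.35 in HD, with no opposite signs. The HD minus WT difference was -3.23 for Clic6 (0.12 and -3.11), -2.90 for Fcrls (2.65 and -0.25), -2.52 for Aif1 (2.37 and -0.15), the microglial IBA1 gene, and -2.11 for Slc17a7 (1.59 and -0.52), a vesicular glutamate transporter.

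The medians of 7 lists also had opposite signs in the pools, untested too. The HD minus WT difference of the medians was 1.54 for nuclear long noncoding RNA, -1.40 for cortical excitatory neurons, -0.95 for oxidative phosphorylation and -0.64 for striatal interneurons. Smaller ones were -0.32 for endoplasmic reticulum genes, 0.26 for immediate early genes and -0.14 for lysosomal genes.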

How the results depend on the processing

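The count of genes above input (152) was 9 with a 75th percentile filter, 406 over every probe set, 283 after cyclic loess, 2 after quantile normalization, 464 against the mean of IgG and input, and 0 with only the CPEB4 and input arrays. The count below (2) was 6 without a filter, 0 with the 75th percentile filter, 5 with a gene's probe sets averaged, 10 over every probe set, 22 after cyclic loess, 0 after quantile normalization, 4 with trended robust eBayes and 0 with only the 4 arrays. Without the pool as a replicate block the counts were 227 and 12, and 134 of the 152 remained; 136 remained after cyclic loess, 151 after median centring and 66 with the mean of probe sets. Leaving out each array gave counts from 0 to 0 in both directions. Genes at 2-fold above in both pools (1350) were 2131 over every probe set, and 446 at 4-fold. Those below (203) were 134 with the 75th percentile filter, 121 with the mean of probe sets, 409 after quantile normalization, 93 after median centring, 1290 at 1.5-fold and 5 at 4-fold. The median of all genes moved from -0.15 to 0.04 after cyclic loess, 0.03 after centring and -0.22 after quantile normalization. Values that turned sign, none past the test, were Srxn1 (0.039) and Ttr (-1.31) with the mean of probe sets, Mbp (-0.37) after cyclic loess, and, over the arrays left out in turn, Slc17a7 (-0.78 to 1.86) and Fcrls (-0.28 to 2.68) without the WT CPEB4 array, Aif1 (-0.17 to 2.38), Ndufa5 (-0.92 to 5.32) and Atp5j (-0.69 to 4.35) without the WT input, and Clic6 (-3.29 to 0.30) without the HD input. The causes were not tested. Folds from inputs below 4.23 depend on the array background.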
